A study of Mus musculus with 26 samples.

Results

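The skeletal and cardiac troponin subunit isoforms were described across regenerating mouse muscle and differentiating mouse myoblasts. The members were the 7 genes Tnnc1, Tnnc2, Tnni1, Tnni2, Tnnt1, Tnnt2 and Tnnt3, taken by gene symbol from the expression tables of both experiments. Each symbol matched 1 gene, so 7 of the 53465 genes listed for muscle and 7 of the 55487 genes listed for the cells were followed. A gene was tested where it reached 0.5 FPKM (fragments per unit of exon length and of sequencing depth) in at least 2 libraries of its table, which 16753 genes of the muscle table and 13824 genes of the cell table did, and the 7 troponin genes were among them in both.

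Troponin is the calcium switch of the thin filament in striated muscle. Troponin C binds calcium, troponin I inhibits the interaction of actin with myosin at rest, and troponin T ties the complex to tropomyosin. Tnnc1 encodes the troponin C shared by slow skeletal and cardiac muscle and Tnnc2 that of fast muscle, Tnni1 and Tnni2 encode slow and fast troponin I, and Tnnt1, Tnnt2 and Tnnt3 encode slow, cardiac and fast troponin T, of which Tnnt2 is also used by developing skeletal muscle.

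The muscle samples were tibialis anterior, a limb muscle made mostly of fast fibres, from male C57BL/6J mice by the study's methods, in which cardiotoxin, a snake venom toxin that destroys fibres, had been injected. The study calls these mice adult. Muscle was taken on days 0, 1, 3, 5 and 10, with 2 libraries a day and 10 in all, and whether the day 0 muscle was untouched or given saline is not stated in the sources used here. The cells were C2C12, a mouse myoblast line that fuses into myotubes when serum is withdrawn. They were used as CTRL and as Cas9M3, a line carrying a lentiviral dCas9-KRAB repressor and guides to the promoter of Mettl3, the methyltransferase that writes N6-methyladenosine on RNA; it was selected with puromycin as a stable line. Each line was sequenced in growth medium (day 0) and after 3 days in differentiation medium (day 3), with 2 libraries a group and 8 in all. The vector in the CTRL cells is not named in the labels, no source says whether a line is 1 clone, and 8 libraries of a separate overexpression experiment were not analysed here. The labels do not say whether the libraries of a group came from separate animals or cultures, so that a p-value measures only the spread between these libraries, which may be technical.

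Several of these genes lie close together (GRCm38). On chromosome 1, Tnni1 (ENSMUSG00000026418, chr1:135779434-135810989) and Tnnt2 (ENSMUSG00000026414, chr1:135836354-135852260) lie on the plus strand, 25365 bp apart. On chromosome 7, Tnni2 (ENSMUSG00000031097, chr7:142441808-142444410) and Tnnt3 (ENSMUSG00000061723, chr7:142498836-142516009) lie on the plus strand with Lsp1 between them. Tnnt1 (ENSMUSG00000064179, chr7:4504570-4516382, minus strand) lies elsewhere on chromosome 7, and 1923 bp from it is Tnni3, the gene of cardiac troponin I, which was not a member and stayed at or below 0.884 FPKM in muscle and 0.141 FPKM in the cells. Tnnc1 (ENSMUSG00000091898, chr14:31208312-31211729, plus strand) and Tnnc2 (ENSMUSG00000017300, chr2:164777161-164779967, minus strand) have no other troponin gene within 50 kb. Tnnc1 lies within the span of Nisch on the opposite strand, and exons of Tnnc2 overlap those of Ube2c on the opposite strand.

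RefSeq start sites (GRCm38.p6) were given for 5 of the 7 genes, and Tnni2 and Tnnt3 were not among them. The 150 bases before the start are shown, 5′ to 3′ on the coding strand, for the slow and cardiac genes with the largest rises in injured muscle (Tnnt2, Tnni1, Tnnc1) and for the fast troponin C gene that fell there (Tnnc2). Capitals mark matches to the letters CAGCTG or CACCTG (E-box forms bound by MyoD family factors) and CATTCC (the MCAT motif, read as GGAATG on the other strand).
Tnnt2, chr1:135836184-135836333, plus strand: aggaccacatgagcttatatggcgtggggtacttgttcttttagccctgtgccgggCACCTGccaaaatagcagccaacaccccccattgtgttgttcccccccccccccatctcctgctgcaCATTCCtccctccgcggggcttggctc
Tnni1, chr1:135799271-135799420, plus strand: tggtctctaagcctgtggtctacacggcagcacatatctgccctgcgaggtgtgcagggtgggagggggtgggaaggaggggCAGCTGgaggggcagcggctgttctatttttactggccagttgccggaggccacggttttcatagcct
Tnnc1, chr14:31208162-31208311, plus strand: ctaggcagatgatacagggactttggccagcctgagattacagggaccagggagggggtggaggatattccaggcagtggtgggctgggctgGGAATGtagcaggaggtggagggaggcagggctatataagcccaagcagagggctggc
Tnnc2, chr2:164779735-164779884, minus strand: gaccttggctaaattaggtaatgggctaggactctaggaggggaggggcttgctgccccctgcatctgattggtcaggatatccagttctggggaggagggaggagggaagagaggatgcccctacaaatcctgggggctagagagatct

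Both strands of the 250 bases before each start were searched. Tnnt2 held CAGCTG at −223 and −157, CACCTG at −94 and CATTCC at −27, and Tnni1 held CAGCTG at −68 and CACCTG at −224. Tnnc1 held CATTCC at −58, Tnnc2 held CACCTG at −183, and Tnnt1, whose window is not shown, held CACCTG at −158 and TATAAA at −30. For Tnni1 and Tnnt2 a second start site is listed (135799511 and 135836989), whose window held CAGCTG at −158 for Tnni1 and none of the motifs for Tnnt2. This Tnni1 match is the same site as that at −68 from the first start. These letters are common: of 32851 promoter windows of this length, 13.0% held CAGCTG, 17.2% CACCTG, 12.6% CATTCC and 12.4% TATAAA. The MEF2 and CArG motifs, in 2.92% and 1.47% of the windows, were in none of the 5 genes' windows, and a match or its absence in these letters describes the sequence only.

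Some properties of the libraries bear on these values. Mettl3 was at 4.70 and 5.65 FPKM in CTRL day 0 cells, 4.68 and 5.15 in CTRL day 3 cells, 0.331 and 0.118 in Cas9M3 day 0 cells and 0.148 and 0.0805 in Cas9M3 day 3 cells, so that both Cas9M3 groups lay below both CTRL groups, and it stayed between 3.59 and 4.97 FPKM in muscle. The libraries held 14170000 to 18820000 reads on genes in muscle and 14230000 to 29570000 in the cells. Ribosomal RNA genes took 8.43% to 29.6% of the reads in the 4 cell libraries numbered replicate 2, the highest in CTRL day 0 replicate 2, against 0.542% to 0.728% in those numbered replicate 1. Xist, the RNA that silences an X chromosome in females, had 5.77 to 10.0 FPKM in 5 muscle libraries (both of day 0, both of day 10 and day 3 replicate 2) and 0.152 FPKM or less in the other 5, where 4 Y-linked genes stood at 0.626 to 11.7 FPKM. The muscle libraries therefore do not all match the male sex in the methods, and the 2 of day 3 did not come from the same animal. The muscle comparisons with calls are also given from a fit with Xist class as a term. Only day 3 held both classes, so that this term rested on its 2 libraries. A call kept or lost with the term is therefore not a result corrected for sex. Of the exon length of Tnnc2, 74.0% is shared with exons of Ube2c on the opposite strand. The ratio of Ube2c to Tnnc2 FPKM was 0.313 to 0.318 in each of the 10 muscle libraries and 0.264 to 51.8 in the cells. The strand setting of the counting is not stated in the sources used here. Ube2c is therefore uncertain in muscle, where it followed Tnnc2, and Tnnc2 is uncertain where Ube2c, a gene of dividing cells, is high. In CTRL day 0 replicate 2, Tnnc2 had 17 reads and Ube2c 2862.

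In muscle, the slow and cardiac troponin genes and the fast troponin genes had opposite time courses. The slow and cardiac genes were lowest or near their lowest on day 1 and highest on day 3, when the fast genes were lowest, and by day 10 both sets stood again at levels that overlapped those of day 0. In bulk tissue, fewer cells of a type and less RNA per cell cannot be told apart. Even at its lowest, the fast set held most of the troponin signal: Tnnc2, Tnni2 and Tnnt3 made up 99.3% to 99.8% of the summed FPKM of the 7 genes on day 0, 99.8% to 99.9% on day 1, 87.1% to 92.4% on day 3, 98.5% to 98.9% on day 5 and 98.9% to 99.8% on day 10.

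Of the troponin C genes, Tnnc1 was at 18.7 and 48.3 FPKM on day 0, 7.51 and 6.14 on day 1, 234 and 235 on day 3, 34.7 and 9.21 on day 5, then 16.2 and 63.7 on day 10. The 2 day 3 libraries had a mean of 234 and an SD of 1.06 FPKM and lay above all 8 others. Tnnc2 was at 11825 and 8961 FPKM on day 0, 8454 and 7479 on day 1, 3066 and 2203 on day 3, 6138 and 6253 on day 5, then 10865 and 9060 on day 10, with both day 3 libraries below all the others.

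Of the troponin I genes, Tnni1 was at 4.86 and 21.3 FPKM on day 0, 6.79 and 1.52 on day 1, 118 and 187 on day 3, 79.2 and 74.8 on day 5, then 9.75 and 42.8 on day 10. Its day 5 libraries stayed above every library of days 0, 1 and 10. Tnni2 was at 4579 and 3437 FPKM on day 0, 2930 and 3030 on day 1, 1065 and 721 on day 3, 2328 and 2193 on day 5, then 4303 and 3370 on day 10, so that its low point was also day 3.

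Of the troponin T genes, Tnnt1 was at 19.3 and 96.3 FPKM on day 0, 29.4 and 7.67 on day 1, 166 and 229 on day 3, 103 and 69.0 on day 5, then 31.1 and 132 on day 10. Its libraries within a day lay up to 4.99-fold apart, on day 0, and day 3 was the only time at which both lay above all others. Tnnt2 was at 1.05 and 2.00 FPKM on day 0, 2.31 and 1.11 on day 1, 73.2 and 96.4 on day 3, 13.2 and 7.18 on day 5, then 1.78 and 6.15 on day 10, with day 3 and then day 5 above the rest. Tnnt3 was at 12367 and 9900 FPKM on day 0, 7964 and 8251 on day 1, 3089 and 2106 on day 3, 6318 and 5991 on day 5, then 11917 and 9241 on day 10, with day 3 below the rest.

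**Figure D1:**
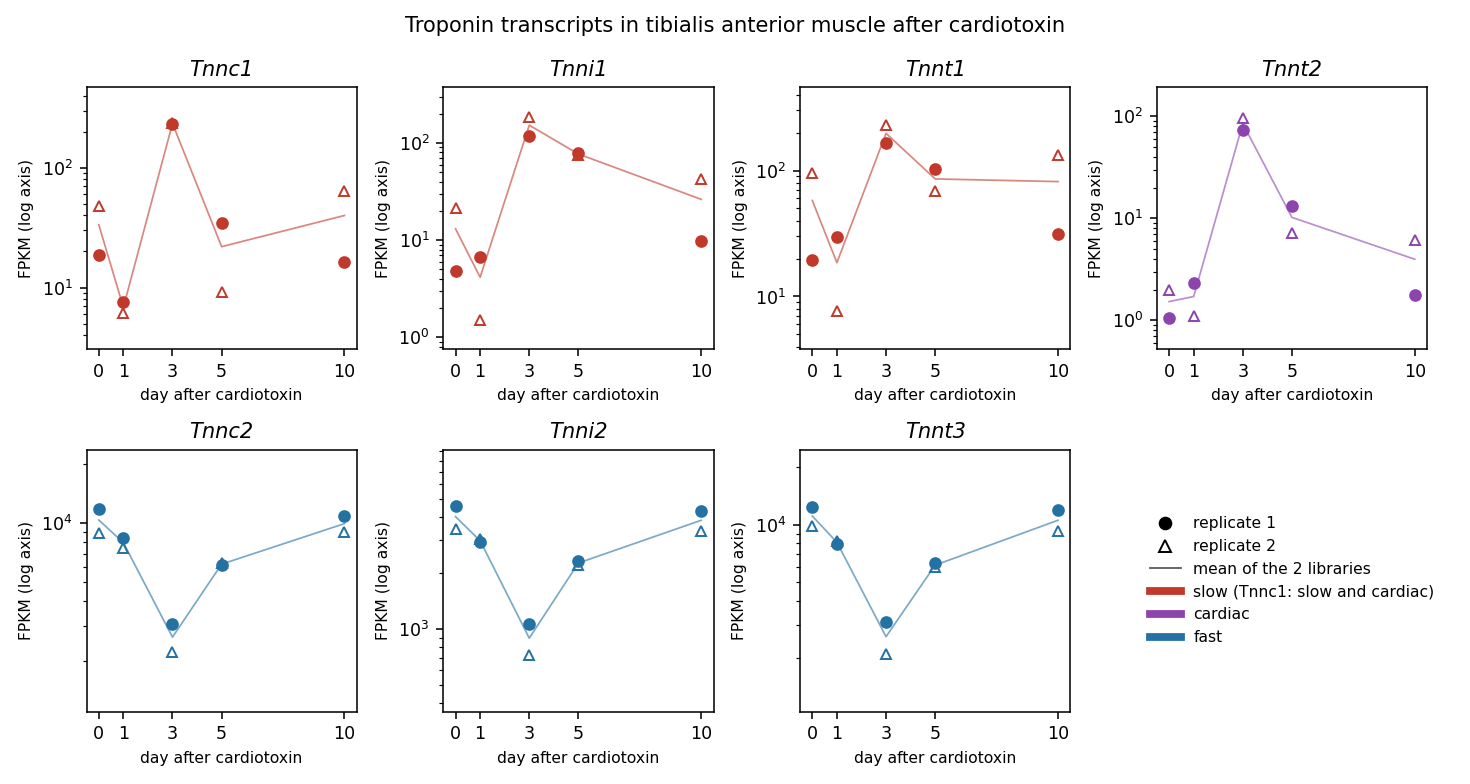
FPKM on a log axis for each of the 7 troponin genes against days after cardiotoxin, with 1 point per library and a line through the mean of the 2 libraries of a day. The slow and cardiac genes peak on day 3 (Tnnt2 at 73.2 and 96.4 FPKM) while the fast genes are lowest there (Tnnt3 at 3089 and 2106 FPKM).

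In the order of levels on days 0, 1 and 10, Tnnt3 and Tnnc2 were highest with overlapping libraries, Tnni2 followed, and Tnnt2 was the lowest of the 7 by mean. Tnnt1 and Tnnc1 came between, and their libraries overlapped on days 0 and 10. On day 3 the order of the lower genes became Tnnc1, then Tnnt1 and Tnni1 with overlapping libraries, then Tnnt2. FPKM compares genes per length, and here the length is the union of all annotated exons, which is 7752 bases for Tnnt2 and 3600 for Tnni1 against 800 for Tnnc2 and 1041 for Tnnc1. The principal coding transcripts of Tnnt2 and Tnni1 average 1149 and 1011 bases, so that levels of these 2 genes per transcript length would be 6.75-fold and 3.56-fold higher, while differences within a gene stay as they are.

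Day 3 against day 0 compared regenerating muscle with its starting state. The mean FPKM on day 3 was 7.00-fold that of day 0 for Tnnc1, 11.7-fold for Tnni1, 3.42-fold for Tnnt1 and 55.7-fold for Tnnt2, and it was 25.3% of day 0 for Tnnc2, 22.3% for Tnni2 and 23.3% for Tnnt3. The libraries of the 2 days did not overlap for any of the 7. Here and below, overlap is given for the 7 genes only, so that no share of all genes stands beside it. By limma on log2(FPKM + 0.1), with adjustment over all 16753 genes, Tnnt2 rose by 5.76 ± 0.62 (log2 fold change ± SE, adjusted p = 0.000482), Tnni1 by 3.85 ± 0.95 (adjusted p = 0.0124) and Tnnc1 by 2.96 ± 0.79 (adjusted p = 0.0170). The fast genes fell, with log2 fold changes of −2.18 ± 0.27 for Tnni2 (limma, adjusted p = 0.000735), −2.12 ± 0.30 for Tnnt3 (adjusted p = 0.00119) and −1.99 ± 0.29 for Tnnc2 (adjusted p = 0.00136). The slow troponin T gene, Tnnt1, did not pass, at 2.17 ± 0.96 (limma, adjusted p = 0.0970). Thus 3 of the 7 were called higher and 3 lower, where 24.5% of all tested genes were called higher and 24.3% lower.

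Tnnt2 and the 3 fast genes kept their calls without any single library. Without day 0 replicate 1, Tnnc1 and Tnni1 missed the threshold (limma, adjusted p = 0.104 and 0.0799), without day 0 replicate 2 Tnnt1 passed it (adjusted p = 0.0347), and without day 3 replicate 1 or 2 Tnnc1 missed it (0.0654 and 0.0703), as Tnni1 did without day 3 replicate 2 (0.0695). With Xist class as a term, Tnnc1 missed it (adjusted p = 0.0716) and the other 5 calls were kept. Of all tested genes, 32.0%, 34.4% and 31.2% were called in either direction without day 0 replicate 1 and day 3 replicates 1 and 2, and 34.9% with the Xist term, against 48.8% with all libraries. After quantile normalisation, which gives every library the same set of values and put the median of all genes at −0.12, the 3 fast genes kept their sign but lost their calls, at −0.27 for Tnnc2 (adjusted p = 0.207), −0.31 for Tnni2 (0.400) and −0.38 for Tnnt3 (0.0897). A gene that keeps its rank in a library keeps its value in this step. Here and below it therefore compresses changes of genes as high as these 3, and cannot decide whether they changed.

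Day 3 against day 1 set the same day 3 libraries against recently injured muscle, and all 7 genes passed. The mean was 34.3-fold higher on day 3 for Tnnc1, 36.7-fold for Tnni1, 10.7-fold for Tnnt1 and 49.6-fold for Tnnt2. By limma, Tnnt2 rose by 5.62 on the log2 scale (adjusted p = 0.00242), Tnni1 by 5.47 (0.00659), Tnnc1 by 5.09 (0.00481) and Tnnt1 by 3.69 (0.0247). The fast genes fell by 1.61 for Tnnc2 (limma, adjusted p = 0.00720), 1.77 for Tnni2 (0.00447) and 1.67 for Tnnt3 (0.00705). The 4 higher and 3 lower calls stood against 14.5% of tested genes called higher and 16.6% lower. With Xist class as a term, 3 of the 7 were called, namely Tnnt2 (adjusted p = 0.0304), Tnni2 (0.0404) and Tnnc1 (0.0428), beside 8.17% of all genes in either direction. After quantile normalisation 4 were called, all higher. Without day 3 replicate 2, 4 were called beside 7.79% of all genes, with Tnnt1 at an adjusted p of 0.123, Tnni1 at 0.0526 and Tnnc2 at 0.0515, and Tnnt1 also missed the threshold without day 1 replicate 2 (0.113) or day 3 replicate 1 (0.0759).

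From day 3 to day 5 the fast genes recovered, while of the slow and cardiac genes Tnnc1 and Tnnt2 fell. Mean FPKM of the fast genes was 2.35-fold higher on day 5 for Tnnc2, 2.53-fold for Tnni2 and 2.37-fold for Tnnt3. By limma the rises were 1.25 (adjusted p = 0.0318), 1.37 (0.0198) and 1.27 (0.0332) on the log2 scale. Tnnc1 fell to 9.36% of its day 3 mean, by 3.70 on the log2 scale (limma, adjusted p = 0.0255), and Tnnt2 to 12%, by 3.09 (adjusted p = 0.0207). Tnni1 and Tnnt1 did not pass, at 50.5% and 43.4% of their day 3 means and log2 differences of −0.95 (limma, adjusted p = 0.561) and −1.21 (0.454). The 3 higher and 2 lower calls stood against 7.23% of tested genes called higher and 5.46% lower. These 5 calls were lost with Xist class as a term and without day 3 replicate 2, where 0% of all tested genes were called, and without day 5 replicate 1 or 2, where 1.77% and 0.272% were called in either direction. Without day 3 replicate 1, 1 of the 7 was called (Tnni2), beside 3.47% of all genes. After quantile normalisation the 2 lower calls were made and no higher ones.

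Of the other muscle comparisons, day 5 against day 0 called 1 gene, Tnnt2, which was 2.67 higher on the log2 scale (limma, adjusted p = 0.0227), where 12.9% of tested genes were called higher and 12.5% lower. Tnni1 stood 2.90 higher without passing (limma, adjusted p = 0.0596), and the fast genes stood 0.73 to 0.85 lower with adjusted p from 0.0607 to 0.0985. At an unadjusted p under 0.05 the count was 5, and the Tnnt2 call was lost without day 0 replicate 1, day 5 replicate 1 or day 5 replicate 2 and with Xist class as a term (adjusted p = 0.238), where 0.132%, 5.49%, 0.115% and 0% of all genes were called. Without day 0 replicate 2, a day 1 library or a day 10 library, Tnni1 was called as well.

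Day 1 against day 0 called 0 of the 7 by limma, with 1 at an unadjusted p under 0.05, where 3.53% of tested genes were called higher and 2.47% lower after adjustment. Counts at an unadjusted p, above and below, are given for the 7 genes only, and the shares of all genes beside them are after adjustment. Day 10 against day 0 called 0, with 0 at an unadjusted p under 0.05 and overlapping libraries for all 7, where 0.00597% of genes were called higher and 0% lower. Day 10 against day 5 called 0 by limma, with 4 at an unadjusted p under 0.05, where 0.119% were called higher and 0.161% lower. A level on day 10 that did not differ from day 0 by this test is not shown to be the same, since the slow genes lay up to 4.99-fold apart within a day.

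The spread within a day separated the 2 sets on days 0, 1 and 10 only. Between the 2 libraries of a day the fast genes differed by 1.02-fold to 1.48-fold, and the slow and cardiac genes by 1.01-fold to 4.99-fold. On day 3 these ranges overlapped, at 1.39-fold to 1.48-fold and 1.01-fold to 1.59-fold, as they did on day 5. On days 0 and 10, replicate 2 held more of each of the 4 slow and cardiac genes than replicate 1, and on day 1 replicate 1 held more. Other genes of slow fibres also differed between the libraries of a day. Myl3, the slow myosin light chain, had 64.4 and 176 FPKM in the day 0 libraries, 92.7 and 20.7 a day after injury, and 40.5 and 128 by day 10. Myl2 was at 28.9 and 65.4, 23.4 and 4.02, and 31.7 and 59.8 FPKM on the same days, so that it had the same higher library each time. Myh7, the slow myosin heavy chain, was at 10.6 and 21.8, 0.511 and 1.62, and 8.06 and 9.20 FPKM, with the other library higher on day 1. The part of the sampled fibres in the slow troponin values was not tested.

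On day 3 the slow troponins parted from the slow myosin genes. By limma against day 0, Myl3 fell by 5.10 on the log2 scale (adjusted p = 0.00465), Myl2 by 3.92 (adjusted p = 0.0174) and Myh7 by 2.34 (adjusted p = 0.00923), while Casq2, the calsequestrin of slow and cardiac muscle, rose by 1.92 (adjusted p = 0.0295). Myl3 was at 6.94 and 1.28 FPKM on day 3, below both day 0 libraries, when Tnni1 and Tnnc1 were above theirs.

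In the cells, slow, fast and cardiac genes moved together: all 7 were high in CTRL day 3 cells and low in Cas9M3 day 3 cells. In CTRL day 3 cells Tnnc1 was at 122 and 165 FPKM, Tnnc2 at 33.2 and 36.4, and Tnni1 at 20.5 and 22.3. Tnni2 was at 20.7 and 28.9 FPKM, Tnnt1 at 26.4 and 31.2, Tnnt2 at 20.5 and 22.0, and Tnnt3 at 31.1 and 38.5. Tnnc1 had the highest mean of the 7 in each of the 4 groups, and in CTRL day 3 cells the other 6, at means of 21.3 to 34.8 FPKM, each overlapped the next. The slow and cardiac genes made up 60.5% to 79.4% of the summed FPKM of the 7 in the cell libraries.

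In CTRL day 0 cells the levels were lower and the 2 libraries further apart. Tnnc1 was at 18.8 and 12.2 FPKM, Tnnc2 at 5.78 and 2.20, Tnni1 at 3.32 and 1.12, and Tnni2 at 4.31 and 0.761. Tnnt1 was at 3.72 and 2.73 FPKM, Tnnt2 at 1.67 and 0.454, and Tnnt3 at 7.85 and 2.68. Replicate 2, the library with 29.6% ribosomal reads, was the lower for each of the 7, and both libraries lay below both CTRL day 3 libraries for all 7. The 2 libraries also differed in Ube2c (11.9 and 114 FPKM), Myog (11.1 and 2.70) and Acta1 (106 and 9.24), but little in Myod1 (2.59 and 2.50). In CTRL day 3 cells replicate 2 was the higher for each of the 7. The source of the day 0 spread was not tested.

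Cas9M3 day 0 cells showed the same order of their libraries over a wider range. Tnnc1 was at 17.3 and 3.40 FPKM, Tnnc2 at 5.19 and 0.953, Tnni1 at 3.09 and 0.212, and Tnni2 at 2.73 and 0.509. Tnnt1 was at 3.90 and 0.469 FPKM, Tnnt2 at 1.83 and 0.492, and Tnnt3 at 5.62 and 1.07. The libraries were up to 14.6-fold apart, for Tnni1, and those of the 2 lines overlapped for all 7.

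In Cas9M3 day 3 cells the levels lay within the range of the Cas9M3 day 0 libraries or, for Tnni2, below it. Tnnc1 was at 6.58 and 7.06 FPKM, Tnnc2 at 0.987 and 1.02, Tnni1 at 0.568 and 0.681, and Tnni2 at 0.359 and 0.273. Tnnt1 was at 1.87 and 1.79 FPKM, Tnnt2 at 0.986 and 0.931, and Tnnt3 at 1.65 and 1.42. Day 3 libraries of either line were at most 1.40-fold apart, and the lowest value, Tnni2 in replicate 2, rested on 6 reads.

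**Figure D2:**
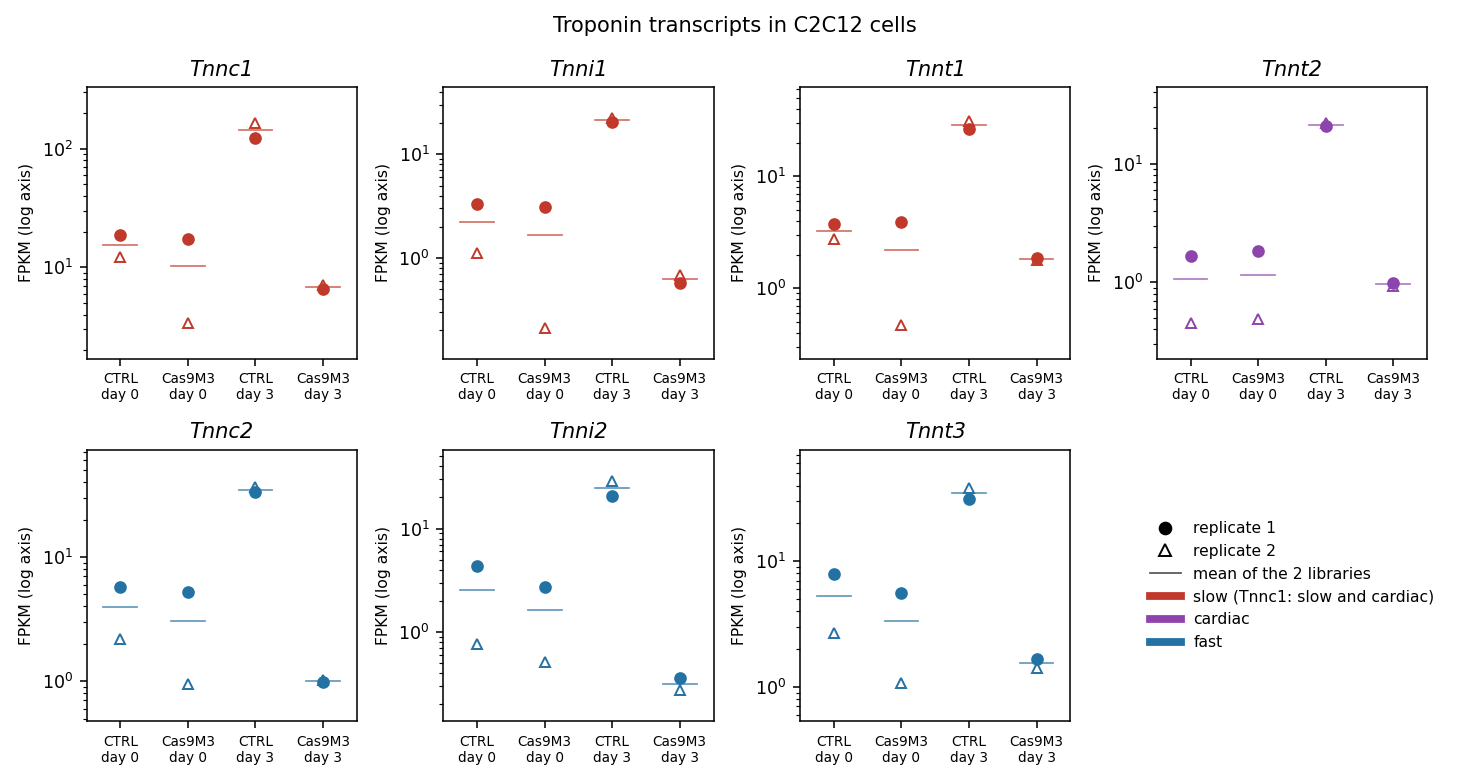
FPKM on a log axis for each of the 7 troponin genes in the 4 C2C12 groups, with 1 point per library and a short bar at the mean of the 2 libraries. CTRL day 3 cells stand above the other 3 groups for every gene (Tnnt2 at 20.5 and 22.0 FPKM), and the day 0 libraries are the widest apart.

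CTRL day 3 against CTRL day 0 compared differentiating with growing myoblasts. Mean FPKM was 9.26-fold higher on day 3 for Tnnc1, 8.73-fold for Tnnc2, 9.63-fold for Tnni1 and 9.78-fold for Tnni2. Among the troponin T genes it was 8.93-fold higher for Tnnt1, 20.0-fold for Tnnt2 and 6.61-fold for Tnnt3. The log2 differences lay between 2.88 ± 0.80 (SE) for Tnnt3 and 4.43 ± 0.70 for Tnnt2, but limma called 0 of the 7 after adjustment over 13824 genes, with 7 at an unadjusted p under 0.05 and the smallest adjusted p, 0.0504, for Tnnt2. After adjustment, 0.767% of all tested genes were called higher and 0.376% lower, and the share at an unadjusted p under 0.05 is not given here. With the replicate number as a block, Tnnt2 passed (limma, adjusted p = 0.0265), beside 1.87% of genes called higher. The count was 5 without CTRL day 0 replicate 1, where the share of all genes called higher also rose, to 13.0%, and 3 without either Cas9M3 day 0 library, where it was 0.671% and 0.702%.

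Cas9M3 day 3 against CTRL day 3 compared the knockdown line with its control after differentiation, using the same CTRL day 3 libraries. As a percentage of the CTRL mean, the Cas9M3 mean was 4.75% for Tnnc1, 2.88% for Tnnc2, 2.92% for Tnni1 and 1.28% for Tnni2. It was 6.36% for Tnnt1, 4.51% for Tnnt2 and 4.42% for Tnnt3, and Mettl3 itself stood at 2.33%. No library of one line overlapped the other for any of the 7, and the share of all genes that separated in this way is not given here. By limma, the log2 difference was −5.89 ± 0.94 (SE) for Tnni2 (adjusted p = 0.0414), −4.98 ± 0.78 for Tnnc2 (0.0379), −4.36 ± 0.70 for Tnnc1 (0.0414) and −4.34 ± 0.70 for Tnnt2 (0.0417). Tnni1 at −4.89 ± 1.05 (limma, adjusted p = 0.0787), Tnnt3 at −4.41 ± 0.80 (0.0546) and Tnnt1 at −3.90 ± 0.82 (0.0753) did not pass. These 4 lower calls stood against 0.687% of tested genes called lower and 1.29% called higher.

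The direction was the same in every fit of this comparison, but the calls were not. With the replicate number as a block, 6 of the 7 were called, with Tnnt3 (limma, adjusted p = 0.0281) and Tnni1 (0.0466) added, beside 1.35% of all genes called lower. The count was 0 without any 1 of the 4 day 3 libraries, where 0% of all tested genes were called in either direction, so that this loss was not particular to the troponins. It was 5 without either CTRL day 0 library, where 2.69% and 2.71% of genes were called lower, and 7 without either Cas9M3 day 0 library, where 0.868% and 0.914% were. It was 1 with no filter on low values, beside 0.419% called lower, and 7 with a pseudocount of 1, beside 1.33%.

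Neither the day 0 difference between the lines nor the change with time in Cas9M3 cells passed for any of the 7. Cas9M3 against CTRL on day 0 gave log2 differences of −1.12 to 0.11, with 0 called by limma, 0 at an unadjusted p under 0.05, and 0% of tested genes called higher and 0% lower, although Mettl3 stood at 4.34% of its CTRL mean. Cas9M3 day 3 against Cas9M3 day 0 gave −1.67 to 0.36, with 0 called by limma and 0 at an unadjusted p under 0.05, where 0.0145% of tested genes were called higher and 0.0145% lower. Tnni2 was the only gene of the 7 whose libraries did not overlap there, with 15 and 6 reads on day 3 against 129 and 14 on day 0. The change with differentiation in Cas9M3 less that in CTRL was −2.78 to −5.32 on the log2 scale. Limma called 0 of these 7 differences (adjusted p from 0.312 to 0.579), with 6 at an unadjusted p under 0.05, and it called 0% of all tested genes higher and 0% lower. With 2 libraries against 2, an exact permutation test of a single gene cannot go below a two-sided p of 0.333, so that none was made.

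**Figure D3:**
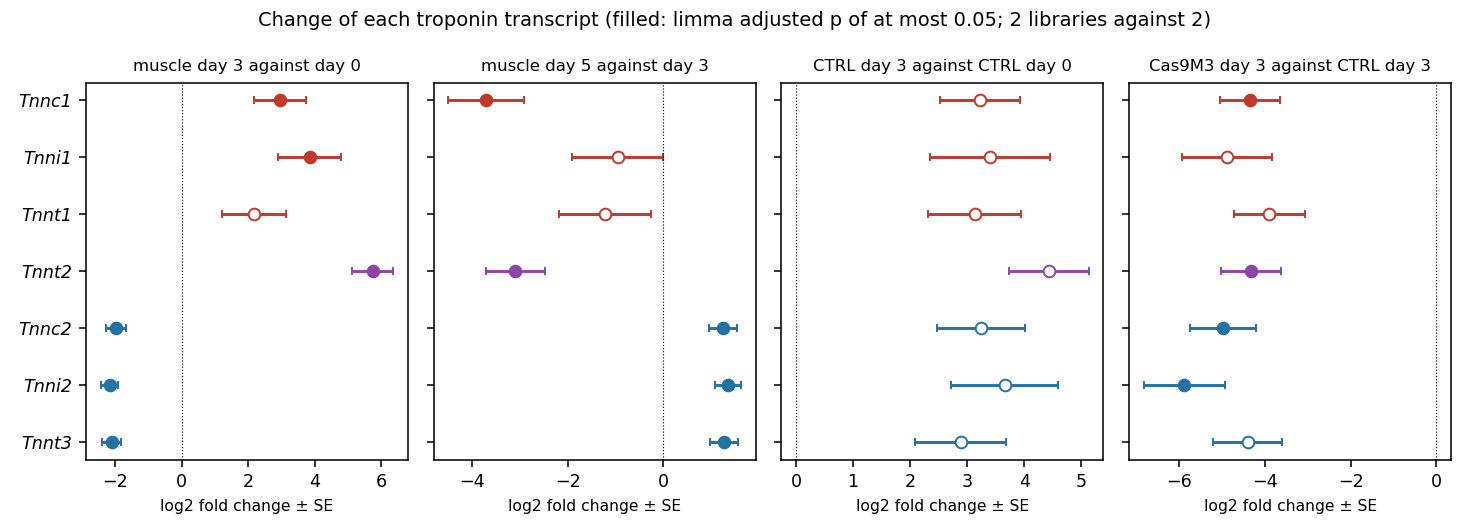
Log2 fold change with its standard error from limma for each of the 7 troponin genes in 4 comparisons (muscle day 3 against day 0, muscle day 5 against day 3, CTRL day 3 against day 0, and Cas9M3 against CTRL on day 3), with filled points where the adjusted p is 0.05 or less. In muscle the fast genes fall on day 3 (Tnni2 at −2.18) while the slow and cardiac genes lie above 0 (Tnnt2 at 5.76), and in the cells all 7 have the same sign within a comparison.

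The balance between isoforms of a subunit was described by the log2 ratio of the slow or cardiac gene to its fast counterpart. In muscle the ratio of Tnnc1 to Tnnc2 was −9.30 and −7.53 on day 0, −10.12 and −10.23 on day 1, −3.71 and −3.23 on day 3, −7.46 and −9.39 on day 5, then −9.38 and −7.15 on day 10. The ratio of Tnni1 to Tnni2 was −9.85 and −7.33 on day 0, −3.18 and −1.95 on day 3, then −4.88 and −4.87 on day 5, so that on day 5 it was still above both day 0 libraries. The ratio of Tnnt1 to Tnnt3 was −9.32 and −6.68 on day 0 and −4.22 and −3.20 on day 3, and that of Tnnt2 to Tnnt3 was −13.40 and −12.20 on day 0 and −5.40 and −4.45 on day 3. Day 3 was the highest of the 5 days in both libraries for all 4 ratios, and it was below 0 there too.

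The rise from day 0 to day 3 was 4.95 for Tnnc1 to Tnnc2, 6.03 for Tnni1 to Tnni2, 4.29 for Tnnt1 to Tnnt3 and 7.88 for Tnnt2 to Tnnt3. Exact permutation tests of a difference among the 5 days, over 945 arrangements, gave p = 0.0106 for Tnnt2 to Tnnt3, 0.0201 for Tnni1 to Tnni2, 0.0529 for Tnnc1 to Tnnc2 and 0.0646 for Tnnt1 to Tnnt3, where the smallest p possible is 0.00106. After Benjamini-Hochberg adjustment over the 12 ratio tests of both experiments, these were 0.0804, 0.0804, 0.155 and 0.155, and none of the 12 was at or under 0.05.

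Of the ratios in the cells, that of Tnnt2 to Tnnt3 differed most between the CTRL groups. It was −2.17 and −2.33 in CTRL day 0 cells, −0.59 and −0.81 in CTRL day 3 cells, −1.57 and −0.98 in Cas9M3 day 0 cells and −0.69 and −0.56 in Cas9M3 day 3 cells. CTRL day 3 cells lay 1.55 above CTRL day 0 cells, and the exact permutation test among the 4 groups, over 105 arrangements, gave p = 0.0190 (adjusted 0.0804, smallest possible 0.00952). The CTRL differences were −0.03 for Tnnc1 to Tnnc2, −0.26 for Tnni1 to Tnni2 and 0.25 for Tnnt1 to Tnnt3, with p = 0.143, 0.324 and 0.276 by the same exact test among the 4 groups (adjusted 0.245, 0.432 and 0.414). With the libraries exchanged only within their replicate number, which leaves 24 arrangements and a smallest p of 0.0417, an alternative chosen after the values were seen, the exact permutation p of Tnnt2 to Tnnt3 was 0.0833 and those of the other 3 ratios, in the same order, were 0.167, 0.417 and 0.375.

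Between the lines the ratios of Tnnc1 to Tnnc2, Tnni1 to Tnni2 and Tnnt1 to Tnnt3 differed in opposite directions on the 2 days. On day 0 the Cas9M3 and CTRL means were 1.73 and 2.05, −0.40 and 0.07, and −0.78 and −0.52, with Cas9M3 the lower each time. On day 3 they were 2.65 and 2.02, 0.80 and −0.19, and 0.24 and −0.27, with Cas9M3 the higher and libraries that did not overlap. The ratio of Tnnt2 to Tnnt3 was higher in Cas9M3 on day 0 (−1.27 and −2.25) and close on day 3 (−0.63 and −0.70). The test over both days averages these, at 0.13 to 0.52 for the 4 ratios, with exact permutation p from 0.111 to 0.722 over 36 arrangements (adjusted 0.222 to 0.722, smallest possible 0.0556), and from 0.25 to 0.875 with exchange within replicate numbers.

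As a share of its subunit's summed FPKM, Tnnt2 was 3.08% of troponin T on day 3 in muscle and 25.2% in CTRL day 3 cells. With the length of the principal coding transcripts in place of the union of exons, an alternative chosen after the values were seen, these became 10.4% and 53.6%. The share of Tnni1 in troponin I moved from 15.3% to 24.1% on day 3 in muscle and from 46.7% to 60.9% in CTRL day 3 cells. That of Tnnc1 in troponin C moved less, from 8.36% to 10.3% and from 80.3% to 83.7%.

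**Figure D4:**
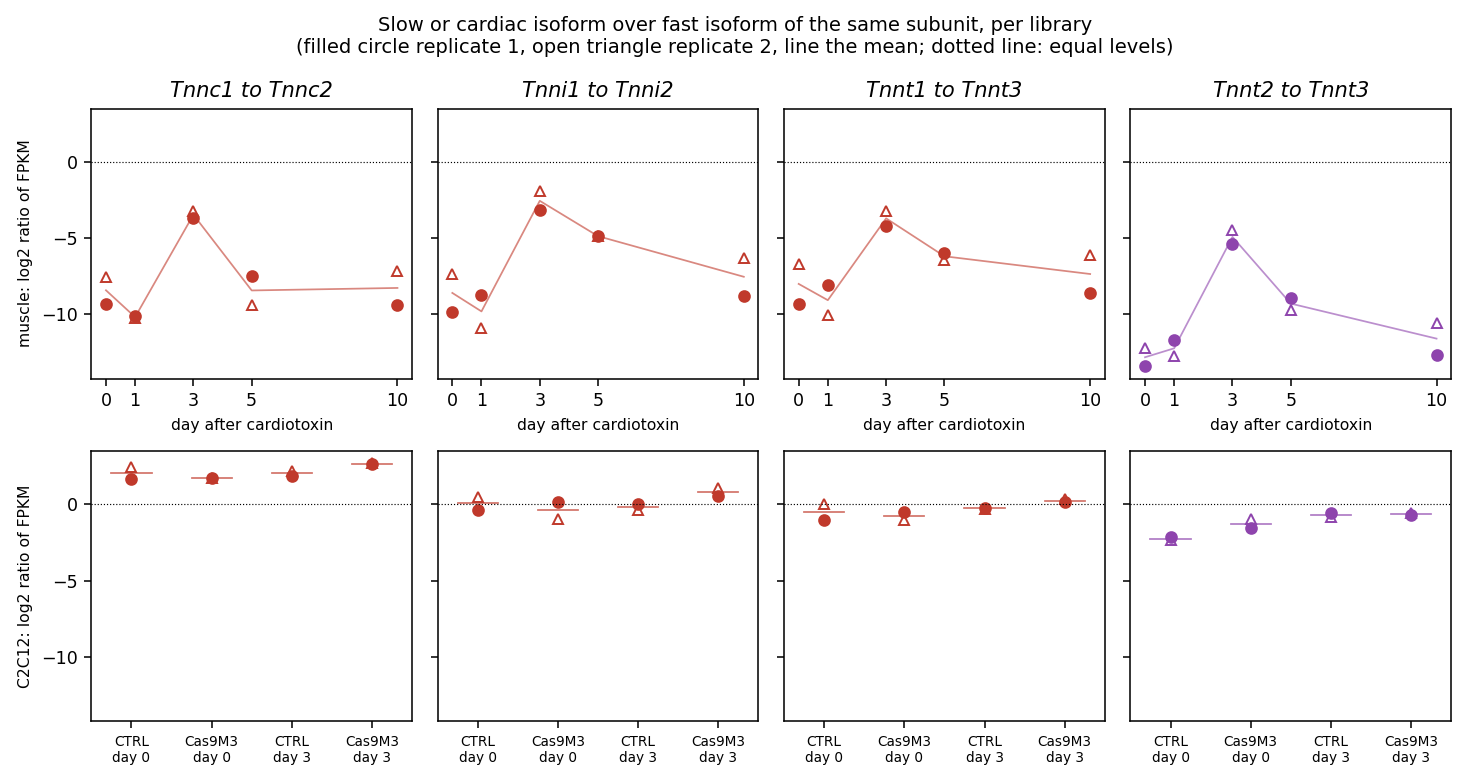
Log2 ratio of slow or cardiac to fast FPKM for troponin C, I and T, against days after cardiotoxin in muscle and by group in the cells, with 1 point per library and a line at the mean. In muscle all 4 ratios peak on day 3 (Tnnt2 to Tnnt3 at −5.40 and −4.45), and in the cells the ratio of Tnnt2 to Tnnt3 is lowest in CTRL day 0 cells (−2.17 and −2.33).

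Across libraries the sign of the relation between fast and slow genes differed between the experiments. Given as a description of log2 FPKM over 10 muscle libraries and 8 cell libraries, which share the group differences above, Pearson's r between 2 fast genes was 0.996 to 0.999 in muscle and 0.988 to 0.996 in the cells (3 pairs). Between 2 slow or cardiac genes it was 0.755 to 0.951 and 0.941 to 0.991 (6 pairs), and between a fast and a slow or cardiac gene it was −0.936 to −0.631 in muscle and 0.916 to 0.993 in the cells (12 pairs).

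The genes outside the 7 with the most similar pattern, by the mean of Pearson's r in muscle and in the cells over 9618 genes, are given as a description. Ckm, the muscle creatine kinase, led for the 3 fast genes, at 0.990 for Tnnc2, 0.991 for Tnni2 and 0.988 for Tnnt3. Actn3, the fast fibre actinin, was among the closest 3 for Tnnc2 (0.956) and Tnnt3 (0.971), and Atp2a1, the fast sarcoplasmic calcium pump, for Tnni2 (0.960). Mymk and Mymx, which drive myoblast fusion, were closest to Tnnt2 (0.983 and 0.981), and to Tnnc1 at lower values (0.889 and 0.891). Casq2 was closest to Tnni1 (0.965), and Mymk to Tnnt1 (0.914), with Myl4, a myosin light chain of embryonic muscle, among the closest 3 for both (0.951 and 0.912).

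Of 12 other thin filament genes tested in muscle, 1 rose and 7 fell from day 0 to day 3, with a median log2 change of −1.21, beside 24.5% of all tested genes called higher, 24.3% lower and a median of 0.01. Tpm1 and Tpm2, tropomyosins, fell by 2.17 (limma, adjusted p = 0.000491) and 1.71 (0.000676), Acta1, the adult skeletal actin, fell by 1.56 (0.00403), and Actc1, the cardiac actin also made by developing skeletal muscle, rose by 1.25 (0.0264). Between day 3 and day 5, 6 of the 12 rose and 0 fell, beside 7.23% and 5.46% of all genes. In the cells, 1 of 10 rose in CTRL cells with differentiation, Actc1, by 7.91 (limma, adjusted p = 0.0228), beside 0.767% of all genes called higher. In Cas9M3 against CTRL day 3 cells 2 of 10 were lower, Actc1 at −6.70 (limma, adjusted p = 0.0262) and Tmod1, which caps actin filaments, at −3.36 (0.0357), beside 0.687% of all genes called lower.

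The fast fibre and the developmental list moved in opposite directions in muscle. On day 3 against day 0 in muscle, 10 of 10 fast fibre genes fell (median −2.13, from Myh2 at −3.44 to Mylpf at −1.18), 5 of 5 developmental sarcomere genes rose (median 3.06, Myh3 at 6.52 and Myl4 at 4.97), and of 8 slow fibre genes 2 rose and 4 fell (median −1.61). Of 9 myogenic regulators 4 rose and 2 fell (median −0.26), and the shares of all genes here were 24.5% higher and 24.3% lower. Among the regulators stood Myog, a driver of differentiation, 4.73 higher, and Myod1, 2.28 higher. From day 0 to day 3 in CTRL cells, 3 of 4 developmental genes rose (median 4.85), 2 of 7 myogenic regulators rose (median 2.32), and 0 of 6 fast fibre (median 2.82) and 0 of 5 slow fibre genes (median 2.19) passed by limma, beside 0.767% of all genes called higher and 0.376% lower. In Cas9M3 against CTRL day 3 cells, 3 of 4 developmental genes (median −5.31) and 2 of 7 myogenic regulators (median −0.87) were lower, and 0 of 6 fast fibre (median −4.62) and 0 of 5 slow fibre genes (median −3.46) passed, beside 0.687% of all genes called lower, 1.29% higher and a median of −0.05.

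Of 26 tested genes within 50 kb in muscle, 6 were called higher and 9 lower on day 3 against day 0, beside 24.5% and 24.3% of all tested genes, with a median of −0.04. Among the 9 lower was Ube2c, at −1.97 (limma, adjusted p = 0.000772). Its exons overlap those of Tnnc2 and it followed Tnnc2 in every muscle library, so that it is not a separate neighbour there. Beside the fast genes of chromosome 7, Syt8, 1412 bp from Tnni2, was 4.74 higher (limma, adjusted p = 0.000363) and Lsp1 2.23 higher (0.00113), opposite to Tnni2 and Tnnt3. Other genes beside Tnnt3 fell as it did. Prr33, which overlaps the span of Tnnt3, was at −1.98 (limma, adjusted p = 0.00118), Nctc1 at −2.42 (0.000607) and Mrpl23 at −0.83 (0.00358). Of 18 tested in the cells, 0 were called by limma in CTRL day 3 against day 0 or in Cas9M3 against CTRL on day 3. Of all genes, 0.767% were called higher and 0.376% lower in the former, and 1.29% and 0.687% in the latter.

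Cell type markers gave the setting of the muscle values. Skeletal fibre markers, of which all 7 reached 1 FPKM in every muscle library, summed to 40410 to 40895 FPKM on day 0 and 9617 to 10757 on day 3. Macrophage markers summed to between 20.0 and 38.7 FPKM on day 0 and between 606 and 640 on day 3. Fibroblast markers lay between 51.6 and 157, then between 617 and 688, so that macrophage and fibroblast marker transcripts were higher when the fast troponins were lower. Smooth muscle markers lay between 66.4 and 75.5, then between 349 and 454. Of these, Acta2 ran from 17.4 to 378 FPKM over the 10 libraries, while Myh11 stayed at or below 6.43 and Cnn1 at or below 0.634. Satellite cell and myoblast markers summed to 778 to 836 FPKM on day 0, 566 to 762 on day 3 and 1217 to 1263 on day 5. Most of that sum was Des, desmin, which fibres also express, at 469 to 1346 FPKM over the 10 libraries. Myod1 alone was at 19.7 and 11.3 FPKM on day 0 and higher, at 67.1 and 78.7, on day 3, and Myf5 was at 0.540 and 0.395, then at 1.65 and 2.35. Neutrophil markers summed to 1.58 to 5.11 and 7.17 to 8.26 FPKM, endothelial markers to 49.9 to 69.7 and 29.4 to 37.6, and cardiac markers, mostly Myl2, to 30.3 to 66.8 and 1.76 to 9.05 on days 0 and 3. The part of these cells in the troponin changes was not tested.

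In the cells, skeletal fibre markers summed to 393 to 447 FPKM in CTRL day 3 and 8.84 to 11.7 in Cas9M3 day 3 libraries, and satellite cell and myoblast markers to 144 to 157 and 32.7 to 33.4, so that they were lower together with the troponins. Pax7, which marks satellite cells, stayed at or below 0.0373 FPKM. Cardiac markers summed to 0.390 FPKM or less, with Myl7 at 0 in all 8 libraries, while Tnnt2 and Tnnc1 were expressed. The macrophage markers Adgre1, C1qa, C1qb and C1qc were at 0 in all 8, endothelial markers summed to 0.197 or less and neutrophil markers to 0.363 or less, whereas fibroblast markers summed to 288 to 806 and smooth muscle markers to 431 to 2001 FPKM, of which Acta2 made up 379 to 1922 while Myh11 stayed at or below 0.0358 and Cnn1 at or below 0.846.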

How the data were processed

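By the study's methods, the authors used HISAT2 for alignment to GRCm38 and featureCounts for counting on Ensembl genes, and deposited FPKM values from the fpkm function of DESeq2, in a table for muscle and another for the cells. The tables were scaled separately, so that tests were made only within a table. Divided by what 1 read is worth, low FPKM values came out whole in at least 97.0% (muscle) and 98.7% (cells), within 0.05 read, which gave the depth of 14170000 to 29570000 reads on genes. This depth bears on counting error only.

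Genes that reached 0.5 FPKM in 2 or more libraries were tested with limma 3.58.1 (R 4.3.3, trend on) on log2(FPKM + 0.1), with all groups of a table in 1 fit, Benjamini-Hochberg adjustment over all tested genes and a threshold of 0.05. A fold change on this scale understates that of low genes. Isoform ratios were compared by exact permutation tests (Python 3.11.15, pandas 2.3.3, numpy 2.4.6). The tests among days or cell groups used the between-group sum of squares, which has no sides, and those between the lines were two-sided. Figures were drawn with matplotlib 3.10.9. The fit was tested on simulated data.

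Named genes were the 7 members, the genes with the largest and smallest change in each list (thin filament, slow fibre, fast fibre, developmental sarcomere, myogenic regulators), the 3 genes most like each member, and tested neighbours within 50 kb. Other list genes, single cell markers and Ube2c were named after their values were seen. Members and lists were chosen with earlier results of these data known.

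Same-numbered libraries deviated together in the cells, where the 6 correlations of deviations between groups were 0.278 to 0.680. The numbers were therefore taken to pair them on this measure, although no source states a shared day or culture, and the blocked values are given beside the results they change. Alternatives covered the pseudocount, the filter, median-ratio scaling, quantile normalisation, the trend, the groups in the fit, the replicate block (for the ratio tests added after the data were seen), Xist class and leaving out each library.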

Additional observations from a re-analysis of the deposited data

Results flagged for a closer look

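Tnni2, fast troponin I, was the gene of the 7 whose libraries moved in opposite directions with differentiation, above both day 0 libraries in CTRL cells and below both in Cas9M3 cells. Cas9M3 less CTRL was −5.32 ± 1.33 on the log2 scale (limma, SE, adjusted p = 0.371, unadjusted 0.00649), from 3.65 in CTRL and −1.67 in Cas9M3 cells, and did not pass after adjustment over all genes. It was not particular to Tnni2, since 6 of the 7 were under 0.05 before adjustment, with Tnnt2 at −4.45 (limma, adjusted p = 0.312, unadjusted 0.00365) and Tnnc2 at −4.34 (adjusted p = 0.371, unadjusted 0.00672). The share of all genes under 0.05 before adjustment is not given here. The day 0 libraries stood far apart, with Tnni2 at 4.31 and 0.761 FPKM (CTRL) and 2.73 and 0.509 FPKM (Cas9M3). In Cas9M3 cells these values rested on 129 and 14 reads on day 0, and those of day 3 on 15 and 6, so that the order of the lower libraries rests on few reads. The cause was not tested.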

How the results depend on the processing

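Over the 84 gene comparisons, 1403 of 1568 alternative values kept their direction and side of the threshold, 81 lost a call, 45 gained one and 39 changed sign, and none of the sign changes touched a called gene. The cause was not tested for any of these. With 2 libraries a group, single libraries decided many calls, and the lowest cell value rested on 6 reads.

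The number of troponin genes called moved as follows. Here and in the next paragraph the shares of all genes are not repeated or not given. A moved count is therefore not shown to be particular to the troponins. After quantile normalisation it was 3 on day 3 against day 0, 4 on day 3 against day 1, 2 on day 5 against day 3 and 1 in CTRL day 3 against day 0. With a pseudocount of 1 it was 4 on day 5 against day 0, 1 in CTRL cells and 7 in Cas9M3 against CTRL on day 3, and with 0.01 it was 3 on day 5 against day 3. With no filter it was 2 on day 5 against day 3 and 1 in Cas9M3 against CTRL on day 3, and with a filter of 1 FPKM it was 3 on day 5 against day 0. Without the trend it was 2 on day 5 against day 0, and with only the compared groups in the fit it was 7 in Cas9M3 against CTRL on day 3. With Xist class as a term it was 0 on day 5 against day 0, 3 on day 3 against day 1 and 0 on day 5 against day 3. With the replicate block it was 1 in CTRL cells. In muscle the 10 correlations by replicate number were −0.0187 to 0.211, with 2 above 0.1, so that the numbers were not taken as pairs; the replicate block gave 2 calls on day 5 against day 0, with Tnni2 added (limma, adjusted p = 0.0377), and changed no other count there.

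Leaving out single libraries, the counts ran from 4 to 7 for both day 3 comparisons, 0 to 2 on day 5 against day 0, 0 to 5 on day 5 against day 3 and in CTRL cells, and 0 to 7 in Cas9M3 against CTRL on day 3. In the same way the log2 ratio differences in muscle ran from 4.06 to 5.83 (Tnnc1 to Tnnc2), 4.77 to 7.29 (Tnni1 to Tnni2), 2.97 to 5.61 (Tnnt1 to Tnnt3) and 7.28 to 8.47 (Tnnt2 to Tnnt3). Across cell groups they ran from −0.40 to 0.34, −0.70 to 0.17, −0.29 to 0.79 and 1.44 to 1.65 in that order, and within days from −0.037 to 0.33, −0.020 to 0.55, −0.14 to 0.39 and 0.38 to 0.67. A pseudocount of 1 turned Tnnc1 to Tnnc2 to 0.20 across cell groups and to −0.23 within days, and lowered Tnnt2 to Tnnt3 across cell groups to 0.86 (exact permutation p = 0.0857). The replicate block, added after the data were seen for the 4 groups, left that ratio at 1.55 with an exact permutation p of 0.0833.

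Uncalled genes changed sign as follows. Tnni2 was at 0.052 on day 1 and 0.22 on day 10 against day 0 after quantile normalisation, and Tnnt2 at 0.010 in Cas9M3 day 3 against day 0 with a pseudocount of 0.01. Leaving out single libraries, Tnnt2 on day 1 against day 0 ran from −0.36 to 0.63, and on day 5 against day 0 Tnnt1 ran from −0.19 to 2.12 and Tnnc1 from −1.69 to 0.21. On day 10 against day 0 the ranges were −0.064 to 2.06 (Tnni1), −0.25 to 0.15 (Tnnc2), −0.59 to 1.73 (Tnnt1), −0.27 to 0.15 (Tnni2), −0.26 to 0.11 (Tnnt3) and −0.88 to 1.08 (Tnnc1), and against day 5 −1.43 to 0.65 (Tnnt1) and −0.14 to 1.83 (Tnnc1). In Cas9M3 day 3 against day 0 they were −2.14 to 1.21 (Tnni1), −0.87 to 0.84 (Tnnt2), −2.26 to 0.068 (Tnnc2), −1.05 to 1.76 (Tnnt1), −1.81 to 0.48 (Tnnt3) and −1.33 to 0.98 (Tnnc1). In Cas9M3 against CTRL on day 0 they were −2.71 to 0.64 (Tnni1), −0.74 to 0.96 (Tnnt2), −1.80 to 0.52 (Tnnc2), −2.53 to 0.28 (Tnnt1), −1.75 to 0.61 (Tnni2), −2.01 to 0.28 (Tnnt3) and −2.12 to 0.19 (Tnnc1).

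The share of each isoform in its subunit by principal transcript length, chosen after the data were seen, moved by more than the spread between libraries in 37 of 63 group values.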
